A study of Mus musculus with 186 samples.

Results

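The 65 genes described here encode the classical axon guidance ligands and their receptors, measured in the brains of wild-type mice and of mice heterozygous or homozygous for a mutation of Akap11. They were taken from a table of 28338 gene symbols by their names. The rule took 20 semaphorins, the 11 plexins and neuropilins, 14 Eph receptors, 8 ephrins, 6 Slits and Robos, and netrin-1 (Ntn1) with its receptors Dcc and Unc5a to Unc5d. RNA of 6 dissected regions was sequenced in bulk: striatum, hippocampus, thalamus, substantia nigra and the prefrontal and somatosensory cortices. The mice were 4 or 12 weeks old and were wild type (WT), Akap11 +/- (HET) or Akap11 -/- (KO). With 5 or 6 libraries each, these make 36 groups. The labels name no other allele and no treatment, and they do not give the strain, the sex or how the mutant allele was made.

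Semaphorins signal through plexins, and the secreted class 3 semaphorins use the neuropilins Nrp1 and Nrp2 as co-receptors. Ephrins stay attached to the cell that makes them and bind Eph receptor tyrosine kinases on a neighbouring cell, and both partners can pass on a signal. Slits bind Robo receptors, and netrin-1 attracts growing axons through Dcc and repels them through the Unc5 receptors. After wiring is complete, many of these proteins remain at synapses, where they act on spines and on transmission. The striatum consists mainly of inhibitory projection neurons that receive cortical, thalamic and dopamine input. Akap11 encodes an anchoring protein that holds protein kinase A, and the study compared the mutants with WT mice region by region.

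The 186 libraries held 20.8 to 73.3 M expected counts each (M, mega), with a median of 45.1 M. Levels below are in CPM, counts per M counts of the library, scaled so that libraries can be compared. They are not divided by transcript length, so levels are compared between samples and not between genes. Akap11 itself stood at 11.7 to 24.5 CPM in KO libraries, 90.9 to 222 in HET and 176 to 436 in WT, apart from 1 substantia nigra library labelled WT at 4 weeks (sample 92), which held 44.8 CPM. Striatal marker scores, meaning the mean log2(CPM + 1) of 8 marker genes, were 9.08 to 10.69 in striatum and at most 7.25 elsewhere. At 4 weeks, 4 striatal libraries stood apart by their score for cortical and hippocampal excitatory neurons. They were KO samples 161, 51 and 163 at 6.45, 5.97 and 5.46, and WT sample 92 at 5.37, while the other striatal libraries of that age were at or below 3.23. At 12 weeks all striatal libraries had scores between 0.90 and 1.43. Some 4-week libraries of thalamus (WT samples 23, 913 and 914) and substantia nigra (WT samples 42 and 92, KO samples 44 and 91) also had low scores for their own region. The labels number the samples but do not say that each is a separate animal, so p-values measure the spread between these libraries.

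Which guidance genes differed between KO and WT striatum was asked first, since the title of the series names that region. At 4 weeks 2 of 64 tested members passed the threshold, an adjusted p under 0.05 in edgeR's quasi-likelihood test with Benjamini-Hochberg adjustment over all genes. That is 3.12% of the members, against 3.35% of all genes tested. At 12 weeks 5 of 63 passed, 7.94% against 4.42% of all genes. By direction, 1 member was higher and 1 lower at 4 weeks (1.59% and 1.75% of all genes), and 1 was higher and 4 lower at 12 weeks (1.82% and 2.6% of all genes). The receptor Epha10 rose at both ages, and the ligand Sema3f fell at both. The ligands Efna3 and Sema6b and the receptor Unc5a fell at 12 weeks. The median log2 change of the members was -0.008 at 4 weeks and 0.067 at 12 weeks, against -0.002 and 0.005 over all genes.

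Epha10 lies at chr4:124880899-124917800 on the plus strand of GRCm38 (GENCODE M21) and encodes an Eph receptor whose kinase domain is inactive. In striatum at 4 weeks its level was 17.94, 17.96, 20.03, 21.9 and 22.7 CPM in WT, 17.7, 18.2, 20.2, 21.9 and 24.6 CPM in HET, and 38.0, 39.0, 45.5, 52.3 and 52.4 CPM in KO. At 12 weeks it was 13.4, 15.2, 18.5, 25.8 and 26.5 CPM in WT, 18.03, 20.01, 21.1, 22.5 and 29.7 in HET, and 38.4, 47.5, 48.6, 51.3 and 54.8 in KO. Every KO library was above every WT and HET library at both ages. The mean went from 20.1 ± 2.18 to 45.4 ± 6.94 CPM at 4 weeks and from 19.9 ± 6.02 to 48.1 ± 6.12 CPM at 12 weeks (SD, n = 5 per group). The log2 difference was 1.18 ± 0.11 (SE; edgeR adjusted p = 1.76e-05) at 4 weeks and 1.26 ± 0.18 (adjusted p = 0.000569) at 12 weeks. An antisense gene, 1700125G02Rik, overlaps Epha10, and the sources used here do not say whether counting used the strand. Reads of the pair may therefore not be told apart. In bulk tissue, more cells of a type and more RNA per cell cannot be told apart either.

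Epha10 was also compared without the libraries with cortical markers. Leaving out those 4, which leaves 2 KO and 4 WT libraries at 4 weeks, gave 1.31 ± 0.13 (edgeR adjusted p = 1.01e-04). At 12 weeks the 8 cortical markers summed to 15.0 to 30.1 CPM in KO striatum and 27.1 to 35.7 in WT, with Emx1 at 0 in some WT library. The 7 markers of inhibitory interneurons summed to more in every KO than in every WT library at that age (1655.8 to 1795.8 CPM against 1413.3 to 1648.8), and 1 of the 7 was called higher, with Vip at 0 in some KO library. The part of either set of markers in the Epha10 result was not tested.

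Sema3f encodes a secreted repellent that acts through Nrp2 and plexin A receptors and lies at chr9:107681500-107710475 on the minus strand. Its striatal level at 4 weeks was 31.3, 32.1, 33.2, 33.2 and 40.5 CPM in WT, 27.6, 29.1, 29.5, 34.2 and 42.2 CPM in HET, and 19.3, 21.7, 22.1, 23.2 and 26.2 CPM in KO. All 5 KO libraries were below all WT and HET libraries. The log2 difference between KO and WT was -0.60 ± 0.11 (SE; edgeR adjusted p = 0.00718). At 12 weeks WT libraries held 20.6, 24.0, 24.5, 25.04 and 28.7 CPM, HET libraries 24.1, 24.6, 26.5, 28.2 and 28.3, and KO libraries 16.1, 18.9, 20.1, 20.8 and 22.1. Here KO and WT overlapped, and the difference was -0.34 ± 0.09 (edgeR adjusted p = 0.0483). Without the 4 libraries with cortical markers, the 4-week difference was -0.51 ± 0.15 and no longer passed (adjusted p = 0.102). The 12-week call was lost when any of 12 of the 15 striatal libraries was left out.

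Efna3 encodes ephrin-A3, a lipid-anchored ligand of EphA receptors, at chr3:89313899-89322965 on the minus strand, where the antisense gene Gm15998 overlaps it. At 12 weeks its level was 52.3, 62.7, 65.3, 68.0 and 69.0 CPM in WT, 56.0, 59.3, 61.3, 64.9 and 68.8 in HET, and 32.0, 41.5, 44.6, 49.0 and 49.5 in KO. The highest KO library was below the lowest WT library. The log2 difference was -0.56 ± 0.10 (SE; edgeR adjusted p = 0.00357), and it passed whichever library was left out. At 4 weeks Efna3 stood at 46.3, 49.7, 50.5, 58.9 and 66.7 CPM in WT, 44.4, 45.6, 53.6, 60.8 and 63.3 in HET, and 36.3, 41.1, 42.8, 45.5 and 45.8 in KO. These KO and WT groups did not overlap either, but the difference of -0.36 ± 0.11 missed the threshold in edgeR (adjusted p = 0.0898) and passed in DESeq2 (adjusted p = 0.0493).

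Sema6b, a transmembrane semaphorin that binds plexin A receptors (chr17:56123085-56140343, minus strand), and Unc5a, a netrin receptor that mediates repulsion (chr13:54949411-55006018, plus strand), fell by less. At 12 weeks Sema6b was at 112.4, 114.8, 120.2, 126.1 and 130.1 CPM in WT, 112.2, 122.3, 123.7, 125.8 and 137.1 in HET, and 84.2, 100.1, 101.3, 106.5 and 113.4 in KO. Its log2 difference was -0.27 ± 0.07 (SE; edgeR adjusted p = 0.0419), with 1 KO library inside the WT range. At 4 weeks its KO libraries spanned 132.6 to 160.5 CPM against 151.1 to 205.8 in WT, a difference of -0.30 ± 0.09 (edgeR adjusted p = 0.0737). Unc5a at 12 weeks was at 69.0, 75.9, 76.3, 79.7 and 81.8 CPM in WT, 72.9, 73.9, 75.5, 79.2 and 82.7 in HET, and 56.1, 65.0, 65.8, 69.1 and 72.6 in KO. The KO and WT ranges of Unc5a overlapped, and the difference was -0.23 ± 0.06 (edgeR adjusted p = 0.0448). At 4 weeks its value was 0.18 ± 0.12 (adjusted p = 0.465), and the 3 highest of its 5 KO libraries were those with cortical markers. Of the 8 striatal markers, 2 were called lower in KO striatum at 12 weeks, their sum being 9538.7 to 12242.9 CPM in KO and 9624 to 13745.9 CPM in WT, with none at 0. Their part in the falls at 12 weeks was not tested. Of the 15 fits that each left out 1 striatal library, 9 lost the 12-week call of Sema6b and 11 that of Unc5a.

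**Figure D1:**
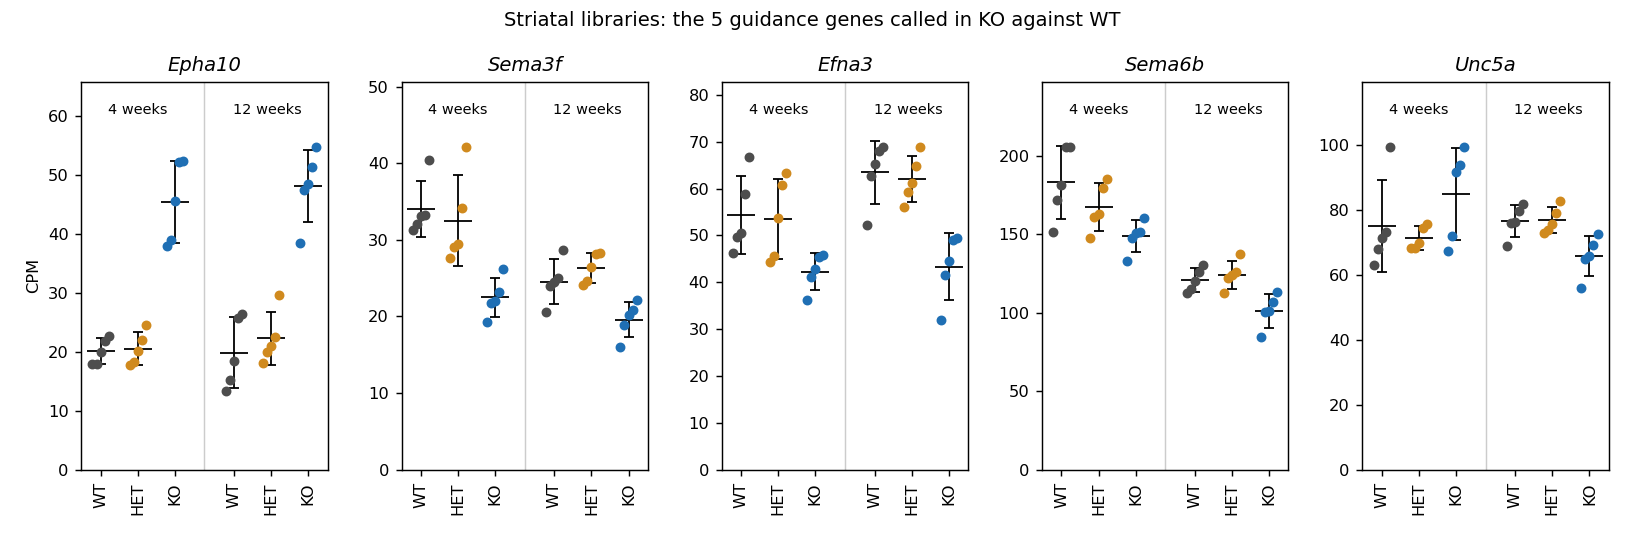
Level of Epha10, Sema3f, Efna3, Sema6b and Unc5a in each striatal library (CPM, linear axes), by genotype at 4 and 12 weeks. Dots are libraries and bars give the mean ± SD of 5. Epha10 in KO lies at 38.0 CPM or above, over every WT and HET library, and HET libraries overlap WT for all 5 genes.

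Promoter sequence was searched for motifs of factors that respond to protein kinase A or to neuronal activity. These were the CRE, spelled TGACGTCA, the AP-1 site TGANTCA and the EGR site GCGTGGGCG, on both strands of the 250 bases before the RefSeq start. Of 32851 promoters in the RefSeq table (GRCm38.p6), 1.55% hold the CRE, 6.75% the AP-1 site and 0.536% the EGR site. The search covered the 2 genes called at both ages. The Epha10 window held none of the motifs, but it lies wholly in a GENCODE exon, so the bases before the GENCODE start were not searched. Sema3f has no entry. The windows of Efna3, Sema6b and Unc5a were added after their values were seen. Of these, 1 of 2 Efna3 windows held an EGR match, 1 of 2 Sema6b windows held an AP-1 match, and the Unc5a window held none. The windows with a match are printed 5′ to 3′ on the gene's strand with the match in capitals, to show where the letters lie. The Efna3 stretch, chr3:89322966-89323189, ends at the annotated start of the gene. The Sema6b stretch, chr17:56133853-56134102, lies inside the gene before an alternative RefSeq start, and the window before the outer start held no match. Both are on the minus strand. A match describes the letters only.
Efna3: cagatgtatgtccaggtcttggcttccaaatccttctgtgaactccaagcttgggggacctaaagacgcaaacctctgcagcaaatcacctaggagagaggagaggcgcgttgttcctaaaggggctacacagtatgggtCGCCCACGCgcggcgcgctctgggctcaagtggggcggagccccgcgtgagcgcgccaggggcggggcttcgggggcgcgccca
Sema6b: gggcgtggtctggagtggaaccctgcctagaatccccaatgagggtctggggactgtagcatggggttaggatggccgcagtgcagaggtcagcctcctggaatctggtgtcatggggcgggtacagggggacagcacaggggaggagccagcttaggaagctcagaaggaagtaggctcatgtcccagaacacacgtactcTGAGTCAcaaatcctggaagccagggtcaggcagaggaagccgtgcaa

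By family, the calls in KO striatum were spread thinly. Of the 14 Eph receptors, 1 was called higher at 4 weeks and 1 of 13 at 12 weeks, Epha10 in each case. Of the 20 semaphorins, 1 was called lower at 4 weeks and 2 at 12 weeks. The ephrins had 1 of 7 called lower at 12 weeks, and the netrin group 1 of 6. None of the 11 plexins and neuropilins and none of the 6 Slits and Robos passed at either age in edgeR. At an unadjusted p under 0.05 these counts were 3 and 1 at 4 weeks and 0 and 1 at 12 weeks. Over all genes, 2755 of 15425 and 2485 of 15622 were at that level. In DESeq2, Plxnb1, a receptor of Sema4d, was called at 4 weeks, where edgeR gave -0.29 ± 0.09 (adjusted p = 0.0815). Across the Eph receptors at 12 weeks the values ran from -0.19 for Epha2 to Epha10 at the top, and Epha4, a receptor of A and B ephrins, was at 0.03 ± 0.07 (adjusted p = 0.937).

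Several members had higher means in KO striatum at 4 weeks without passing. They were picked after their values were seen. Unc5d, a receptor of the Unc5 family, was at 4.54, 4.68, 5.60, 8.67 and 10.4 CPM in WT and 4.75, 5.30, 11.0, 30.3 and 30.4 in KO (log2 1.27 ± 0.46, edgeR adjusted p = 0.146). The receptor Ephb2, which organises excitatory synapses, was at 4.59, 4.68, 5.01, 8.29 and 9.79 CPM in WT and 4.47, 5.00, 12.4, 16.04 and 21.5 in KO (0.88 ± 0.37, adjusted p = 0.226). In both genes the 3 highest KO libraries were those with cortical markers. The 8 cortical markers summed to 21.6 to 1951.1 CPM over the KO libraries, 30.6 to 192.3 over HET and 30.3 to 1061.6 over WT, and 0 of 8 were called although their median log2 difference was 2.16. Nrp2, the Sema3f co-receptor, spanned 3.62 to 29.96 CPM in KO and 5.29 to 9.11 in WT (1.06 ± 0.47, adjusted p = 0.247). The netrin receptor Unc5c stood at 25.8 to 35.4 CPM in KO against 14.0 to 22.6 in WT, without overlap (0.50 ± 0.14, adjusted p = 0.0702), and DESeq2 called it (adjusted p = 0.0187).

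**Figure D2:**
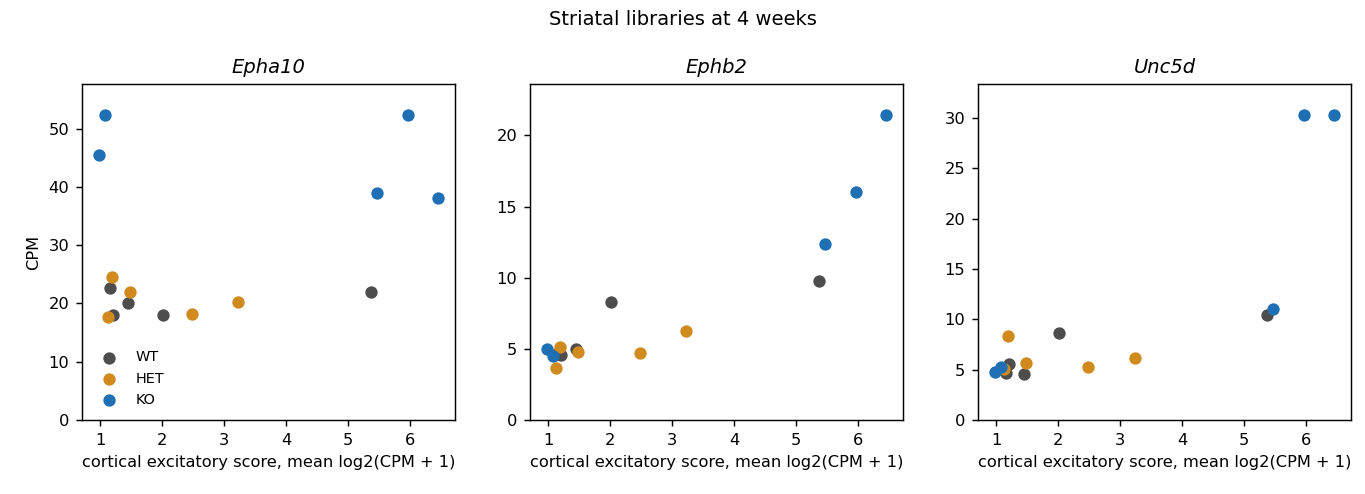
Level of Epha10, Ephb2 and Unc5d (CPM) in the 15 striatal libraries at 4 weeks against the cortical excitatory marker score (mean log2(CPM + 1) of 8 genes). Each point is 1 library, coloured by genotype. Ephb2 and Unc5d are high in the KO libraries where the score is high. For Epha10, KO libraries with low and with high scores lie above all WT and HET libraries. The part of cortical tissue in these levels was not tested.

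The KO difference in striatum was then set against its mean over the 5 remaining regions, in 1 fit per age. At 4 weeks 6 of 65 members differed, 9.23% against 3.52% of all genes, all of them with the more positive KO difference in striatum. They were Epha10 (1.23 ± 0.18, edgeR adjusted p = 6.19e-06), Unc5d (1.30 ± 0.34, adjusted p = 0.0163), Ephb2 (1.05 ± 0.24, adjusted p = 0.00489), Ephb3, Sema6c and Sema4a. Without the libraries with markers apart, Epha10 alone remained, at 1.31 ± 0.22 (adjusted p = 1.20e-04), while Ephb2 was at -0.11 and Unc5d at -0.25. At 12 weeks 3 of 65 differed, 4.62% against 3.11% of all genes. Epha10 was more positive in striatum by 1.40 ± 0.17 (adjusted p = 1.13e-08), and Efna3 more negative by -0.60 ± 0.10 (adjusted p = 3.00e-05). Sema7a, a membrane-anchored semaphorin, was more negative by -0.49 ± 0.13 (adjusted p = 0.0163), a call lost in 5 of 10 fits that each left out 1 striatal library (adjusted p up to 0.114). In striatum alone Sema7a was at 115.7, 168.4, 231.8, 252.4 and 256.3 CPM in WT and 118.6, 127.4, 151.8, 168.1 and 170.1 in KO, and did not pass (-0.49 ± 0.19, adjusted p = 0.182). For Sema3f the difference between striatum and the other regions did not pass at 4 weeks (-0.48 ± 0.36, adjusted p = 0.634) or 12 weeks (-0.30 ± 0.23, adjusted p = 0.674).

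Outside striatum no member was called between KO and WT in edgeR, over 641 tests of a member in a region at an age, where 0.018% of the tests of all genes were called. At an unadjusted p under 0.05 there were 65, of which 20 were in 4-week prefrontal cortex. Over all genes, the number at that level ran from 479 in 12-week hippocampus to 2415 in 4-week prefrontal cortex. The 10 sets of region and age held 160983 tests of all genes. DESeq2 gave 3 calls of members, and the share of all genes it called there is not given here. Those 3 were Ephb3 in prefrontal cortex (-0.45, DESeq2 adjusted p = 0.0245) and somatosensory cortex (-0.44, 0.0216), and Sema7a in prefrontal cortex (-0.42, 0.0420), each at 4 weeks. Ephb3 is a receptor of B-class ephrins. Epha10 outside striatum ranged from -0.38 ± 0.15 in 12-week thalamus to 0.22 ± 0.13 in 4-week hippocampus. Efna3 ranged from -0.48 ± 0.25 in 4-week substantia nigra to 0.21 ± 0.07 in 12-week thalamus, and Sema3f from -0.40 ± 0.34 to 0.44 ± 0.60. Unc5a had its largest values in thalamus, -1.60 ± 0.47 at 4 weeks (adjusted p = 0.226) and -1.01 ± 0.27 at 12 weeks (adjusted p = 0.489). Thalamic scores for inhibitory interneurons spanned 2.04 to 4.95 in WT and 1.88 to 2.49 in KO at 4 weeks. At 12 weeks they spanned 2.26 to 5.18 in WT and 2.13 to 3.68 in KO. WT samples 23, 913 and 914 of 4-week thalamus also had low scores for their own region. The part of these marker differences in the Unc5a values was not tested.

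**Figure D3:**
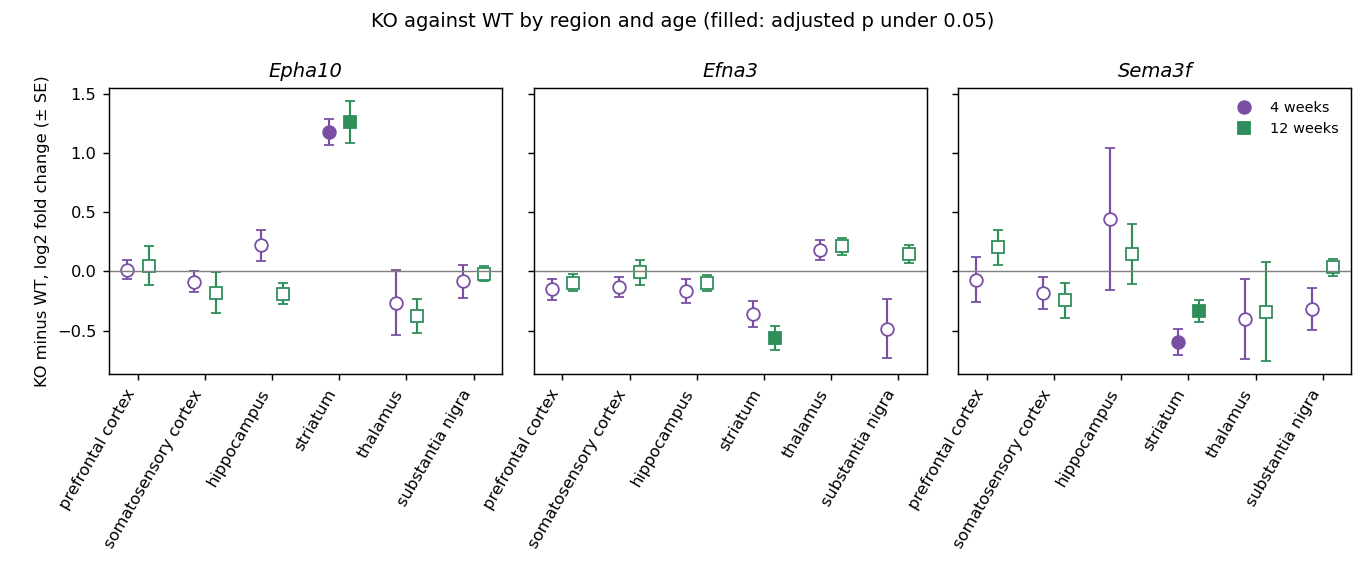
Log2 difference KO minus WT for Epha10, Efna3 and Sema3f in 6 regions at 4 and 12 weeks, with bars of ± 1 SE from edgeR. Filled points passed an adjusted p under 0.05 and open points did not. Only striatal points are filled, and the Epha10 points there lie at 1.18 and 1.26.

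In HET mice no member was called. In edgeR 0 of 768 HET tests over the 12 sets of region and age passed, against 0.00521% of the 192030 tests of all genes. At an unadjusted p under 0.05 there were 56 tests of members. Over all genes, the number at that level ran from 263 in 12-week somatosensory cortex to 2551 in 4-week thalamus. DESeq2 called Sema4g and Sema6b higher in HET thalamus at 4 weeks (0.39 and 0.30, adjusted p = 0.0367 and 0.0441). The share of all genes that DESeq2 called in that comparison is not given here. In striatum the HET difference of Epha10 was 0.04 ± 0.11 at 4 weeks and 0.16 ± 0.18 at 12 weeks, that of Sema3f -0.06 and 0.10, and that of Efna3 -0.02 and -0.03. The change of the KO difference from 4 to 12 weeks was tested in each region. In edgeR 0 of 387 tests passed, with 21 at an unadjusted p under 0.05 and 0 calls in DESeq2, and 0% of all genes were called. Over all genes, the number at that unadjusted level ran from 468 in somatosensory cortex to 1261 in substantia nigra, in 98669 tests over the 6 regions. In striatum the change of the KO difference was 0.08 ± 0.22 for Epha10 and -0.42 ± 0.14 for Unc5a (adjusted p = 0.561).

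Genes of the same pathways outside the rule were read from lists. Of the cytoplasmic effectors of these receptors, 1 of 52 tested was called higher and 1 lower in KO striatum at 4 weeks, and 2 of 53 higher and 1 lower at 12 weeks. Over all genes 1.59% were called higher and 1.75% lower at 4 weeks, and 1.82% and 2.6% at 12 weeks, so 1 effector called of 52 is near the background share. Nck2, an adaptor that links Eph and netrin receptors to actin, was higher at both ages (0.40 ± 0.08, edgeR adjusted p = 0.00989, and 0.26 ± 0.07, adjusted p = 0.0313). Chn1, a Rac-inactivating protein that acts below EphA4, was lower at 12 weeks (-0.31 ± 0.05, adjusted p = 0.00145). Arhgef11, which binds B plexins, was higher at 12 weeks (0.21 ± 0.04, adjusted p = 0.0125). Of other guidance cues and receptors, 0 of 27 were higher and 2 lower at 4 weeks, and 1 of 28 higher and 1 lower at 12 weeks. Plxdc1 was called lower at 4 weeks, where its value was -0.53 ± 0.13 (adjusted p = 0.0345), and again at 12 weeks, where it was -0.58 ± 0.10 (adjusted p = 0.00184). The heparan sulphate carrier Gpc1 was lower at 4 weeks (-0.33 ± 0.07, adjusted p = 0.0209), and the adhesion molecule L1cam was higher at 12 weeks (0.24 ± 0.06, adjusted p = 0.0448).

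Age was compared in WT libraries within each region. The members were mostly lower at 12 than at 4 weeks. Of 387 tests, 115 passed in edgeR, 110 lower and 5 higher. That is 28.4% lower and 1.29% higher, against 11.4% and 9.21% of the tests of all genes. In somatosensory cortex 40.6% of the members were called against 27.1% of all genes, in hippocampus 30.8% against 17.7%, in thalamus 30.8% against 22.6%, in substantia nigra 29.2% against 18.6%, in prefrontal cortex 28.1% against 19.1% and in striatum 18.8% against 18.5%. The median change of the members was between -0.321 (thalamus) and -0.111 (substantia nigra), while that of all genes was between -0.017 and 0.021. Lower calls made up 48 of 120 tests of semaphorins, 21 of 66 of plexins and neuropilins, 18 of 82 of Eph receptors, 10 of 36 of the netrin group, 9 of 36 of Slits and Robos and 4 of 47 of ephrins. Altogether 45 members were lower in at least 1 region, and 17 were called in none. Neither count was made over all genes. Age was carried by different mice, so a batch that differs between the ages cannot be told apart from it.

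Sema6a, Sema4d, Sema6b and Plxnb3 were lower at 12 weeks in all 6 regions. Sema6a, a transmembrane ligand of A-class plexins, went in striatum from 72.5, 74.5, 75.7, 78.4 and 105.8 CPM to 23.2, 25.4, 27.1, 27.9 and 28.3 CPM (-1.60 ± 0.14, edgeR adjusted p = 4.33e-09). Its smallest change was in thalamus, -0.77 ± 0.12, and its largest in hippocampus, -1.62 ± 0.22. Sema4d, the ligand of Plxnb1, changed by -1.52 ± 0.17 in substantia nigra, -1.29 ± 0.11 in thalamus, -1.12 ± 0.13 in striatum and -0.43 ± 0.07 in prefrontal cortex. In substantia nigra it spanned 147 to 352 CPM at 4 weeks and 64.5 to 79.6 at 12 weeks, and the ages did not overlap in any region. Sema6b changed by between -0.96 ± 0.17 in substantia nigra and -0.52 ± 0.10 in thalamus, also without overlap in any region. In substantia nigra its call was lost in 2 of 7 other settings (-0.241 at the weakest, edgeR adjusted p up to 0.438). The 4-week values there include the library labelled WT sample 92, which had little Akap11, at 258 CPM of Sema6b (others 98.4 to 152). Plxnb3, a plexin found in oligodendrocytes, went in striatum from 51.9 to 66.3 CPM down to 28.5 to 36.0 CPM (-0.90 ± 0.14, adjusted p = 4.34e-05), and by -0.37 ± 0.12 in somatosensory cortex, where the ages overlapped. Plxnb1, named here after its values were seen, was lower in 5 regions, by up to -0.55 ± 0.10 in striatum.

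Markers of several cell types also differed between the ages. Of the oligodendrocyte markers, all 7 were called lower at 12 weeks in striatum, hippocampus and substantia nigra, 6 of 7 in thalamus and somatosensory cortex, and 1 of 7 in prefrontal cortex, and none was at 0 in any library. Their sum went in WT striatum from 10573.1 to 21089.2 CPM at 4 weeks to 4780.8 to 6359.1 CPM at 12 weeks. Cortical excitatory markers were lower in WT striatum (5 of 8 called, median log2 -4.96, summed 30.3 to 1061.6 CPM at 4 weeks and 27.1 to 35.7 at 12 weeks) and in thalamus (5 of 6 called, median -2.80). Thalamic markers were lower in hippocampus (6 of 7 called, median -1.72, summed 118.4 to 1193.4 CPM at 4 weeks and 96 to 232.8 at 12 weeks). Their part in the hippocampal age results was not tested. Without the libraries with markers apart, 17 members were called in striatum (17.7% of all genes), 20 in substantia nigra (17.3%) and 14 in thalamus (15.6%), and Sema6a, Sema4d, Sema6b and Plxnb3 stayed lower and called in all 3. With the oligodendrocyte score as a covariate, chosen after seeing the data, 110 tests of a member in a region passed, 107 of them lower. The share of all genes called with that covariate ran from 5.33% in striatum to 31.3% in substantia nigra. In striatum the count went from 12 to 4 of 64 members, while the share of all genes called there went from 18.5% to 5.33%. Sema6a kept its call in all 6 regions, while Sema4d (-0.39, adjusted p = 0.0828) and Sema6b (adjusted p = 0.0561) lost it in striatum, and Plxnb3 lost it in 4 regions. The KO libraries were compared between the ages in the same fits, which hold all 3 genotypes. There 93 tests passed, 91 lower, and 71 of them were shared with WT in the same direction. The share of all genes called in KO ran from 10.7% in prefrontal cortex to 25.4% in striatum. The shared calls do not come from separate fits, and shared calls were not counted over all genes.

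The 5 members called higher at 12 weeks were single-region cases. Ntn1 in substantia nigra spanned 18.8 to 85.6 CPM at 4 weeks and 80.9 to 119.5 at 12 weeks (1.28 ± 0.32, edgeR adjusted p = 0.00532), and was lower with age in hippocampus (-0.40 ± 0.11) and thalamus (-0.45 ± 0.11). Robo2, a Slit receptor, and Epha5, a receptor of A-class ephrins, were higher in substantia nigra by 0.80 ± 0.28 (adjusted p = 0.0459) and 0.79 ± 0.22 (adjusted p = 0.0115). With the oligodendrocyte covariate both values turned negative (-0.77 for Robo2 and -0.30 for Epha5) and neither passed. The Robo2 call was lost in 7 of 11 fits that each left out 1 library, and that of Epha5 in 0 of 11. At 4 weeks 2 of the 6 WT libraries there had few dopamine neuron transcripts, and 4 of the 7 dopamine markers were called higher at 12 weeks. Their part in these results was not tested. Epha10 was higher in hippocampus, from 36.6 to 41.5 CPM up to 44.5 to 57.4 CPM (0.36 ± 0.12, adjusted p = 0.0299), but its value in KO libraries was -0.05, and 4 of 11 fits that left out 1 library lost the call. Epha7 was higher in somatosensory cortex (0.25 ± 0.09, adjusted p = 0.0293), a call lost in 4 of 10 such fits (adjusted p up to 0.106).

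**Figure D4:**
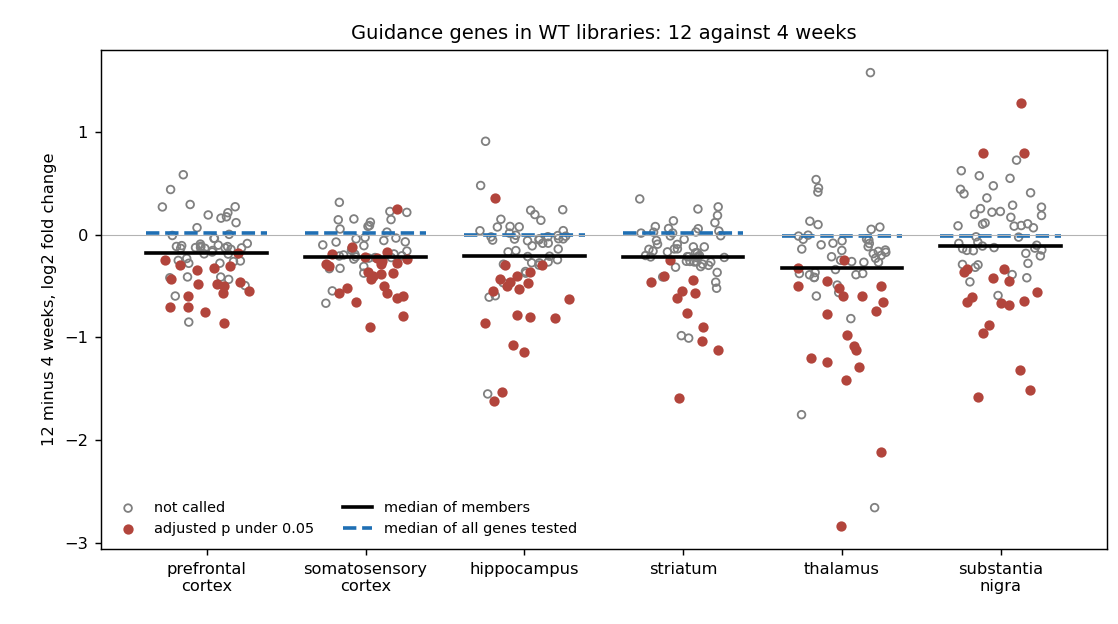
Log2 difference 12 minus 4 weeks in WT for each tested member (dots), by region. Black lines are the medians of the members and blue dashed lines those of all genes. The member medians lie at -0.111 to -0.321 and those of all genes at -0.017 to 0.021.

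Levels also differed between regions of the WT brain. A member's level in a region was compared with the mean of the other 5, and 529 of 780 tests passed, 274 higher and 255 lower. These are 35.1% and 32.7% of the tests of members, against 27.8% and 26.2% of the tests of all genes. At 4 weeks 64.6% of the members were called in striatum (52.9% of all genes), 63.1% in substantia nigra (59%), 58.5% in each of prefrontal cortex (43%), hippocampus (36.4%) and thalamus (48.1%), and 55.4% in somatosensory cortex (38.4%). At 12 weeks the share of members called ran from 72.3% in both cortices (57% and 56.4% of all genes) to 84.6% in thalamus (66.9% of all genes). It was 76.9% in striatum (67.3%), 75.4% in substantia nigra (67.8%) and 73.8% in hippocampus (54.4%). In all, 221 pairs of member and region were called at both ages, every one with the same sign. Calls shared by the ages were not counted over all genes, so this is not set against a background. The ratio of the highest to the lowest regional mean had a median of 4.71 over the members at 4 weeks and 5.30 at 12 weeks. Hippocampus had the highest mean for 19 members at each age, and striatum the lowest for 22 at each age. The highest and lowest regions were not counted over all genes. In the KO libraries 605 of 780 tests passed, and 506 of the 507 pairs called in both genotypes had the same sign. Calls shared by the genotypes were not counted over all genes either. In KO striatum 46 members were called at 4 weeks and 52 at 12 weeks, where 60.6% and 68.2% of all genes were called.

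Of the 41 members called in striatum at both ages, 16 were higher and 25 lower than in the other regions. Sema3a, a secreted class 3 repellent, was at 28.0 to 37.4 CPM at 4 weeks and 19.99 to 30.6 at 12 weeks, higher than the mean of the other regions by 2.42 ± 0.38 and 2.56 ± 0.23 (edgeR adjusted p = 3.06e-06 and 4.91e-11). Its highest regional mean, however, was in somatosensory cortex at both ages. Efnb2, a transmembrane ephrin, was at 99.8 to 117.7 and 90.7 to 115.4 CPM, higher by 2.29 ± 0.24 and 2.29 ± 0.11. Ephb2, which binds it, was the member most below the other regions, by -2.37 ± 0.21 and -2.59 ± 0.14, and Plxna1, a receptor of class 3 semaphorins, followed at -2.19 ± 0.21 and -2.46 ± 0.10. Ephb1, another receptor of B ephrins, was higher by 1.12 ± 0.09 and 1.45 ± 0.08, so 2 receptors of that class stood at opposite sides. Ephb1 was picked for this comparison after its values were seen. The 2 genes called in KO striatum at both ages differed in this order. Epha10 had its lowest WT mean in striatum, 20.1 CPM at 4 weeks against 24.4 to 76.8 in the other regions, and the KO striatum mean of 45.4 fell inside that range. Sema3f had its highest WT mean in striatum at 34.1 CPM, with substantia nigra next at 28.1, and the KO striatum mean was 22.5.

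Hippocampus was high in Slit1, a secreted ligand of Robo receptors, at 211 to 349 CPM at 4 weeks and 268 to 357 at 12 weeks (2.65 ± 0.38 and 3.27 ± 0.13 above the other regions). It was also high in Robo3 (2.43 ± 0.52 and 3.30 ± 0.24). Nrp1 and Nrp2, picked after their values were seen, were high there by 2.23 ± 0.16 and 2.38 ± 0.23 at 4 weeks. Hippocampus was low in Efna5, by -1.84 ± 0.21 and -2.36 ± 0.15 at the 2 ages, and in Sema3f, by -1.72 ± 0.29 and -1.36 ± 0.19. Ligands were thus found at both ends of the hippocampal order. In somatosensory cortex the member furthest above the other regions was Robo3, a receptor that modulates the Slit response, at 68.3 to 132.3 and 55.0 to 122.2 CPM (3.24 ± 0.52 and 3.89 ± 0.24). Sema3a was also high there, by 2.54 ± 0.38 and 2.92 ± 0.22. Epha1 and Efnb3 (-2.30 ± 0.13 and -1.93 ± 0.08) were furthest below. Prefrontal cortex was high in Efnb2 (1.92 ± 0.24 and 1.96 ± 0.12) and Sema3a (1.77 ± 0.39 and 2.20 ± 0.23), and low in Unc5b (-2.44 ± 0.18 and -2.27 ± 0.14). Epha1 was lowest in the cortices, by -2.70 ± 0.63 and -1.86 ± 0.54 in prefrontal and by -2.46 ± 0.62 and -3.01 ± 0.62 in somatosensory cortex, at levels of 0 to 0.154 CPM in prefrontal cortex.

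Thalamus held the most Sema4g, at 88.9 to 172 CPM at 4 weeks and 130 to 167 at 12 weeks (2.01 ± 0.13 and 2.52 ± 0.07). It nearly lacked Sema3a, at 0.0301 to 4.48 and 0 to 0.465 CPM (-3.07 ± 0.54 and -5.81 ± 0.45), and Robo3 (-2.59 ± 0.73 and -4.85 ± 0.46). Epha1 was called highest there (2.03 ± 0.38 and 4.60 ± 0.32) from low levels of 0.346 to 2.07 and 0.969 to 6.53 CPM. At 4 weeks 1 thalamic WT library, sample 913, held 19.98 CPM of Robo3 while the others held 0 to 0.456, and its cortical score was 5.90. Without the libraries with markers apart, the 4-week thalamic differences were -6.45 for Sema3a and -8.49 for Robo3. Substantia nigra held the most Ntn1, by 1.82 ± 0.15 and 3.38 ± 0.07, and Unc5b, at 129 to 192 and 67.4 to 118.2 CPM (1.72 ± 0.12 and 1.41 ± 0.10). A netrin and one of its repulsive receptors were highest in the same dissected tissue. The members furthest below the other regions there were Robo3 (-3.85 ± 0.81 and -3.07 ± 0.38) and Plxnd1, the receptor of Sema3e, at 8.96 to 19.7 CPM (-2.83 ± 0.20 and -2.48 ± 0.16), a gene that striatum held at 2.22 ± 0.15 and 2.33 ± 0.11 above the other regions.

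**Figure D5:**
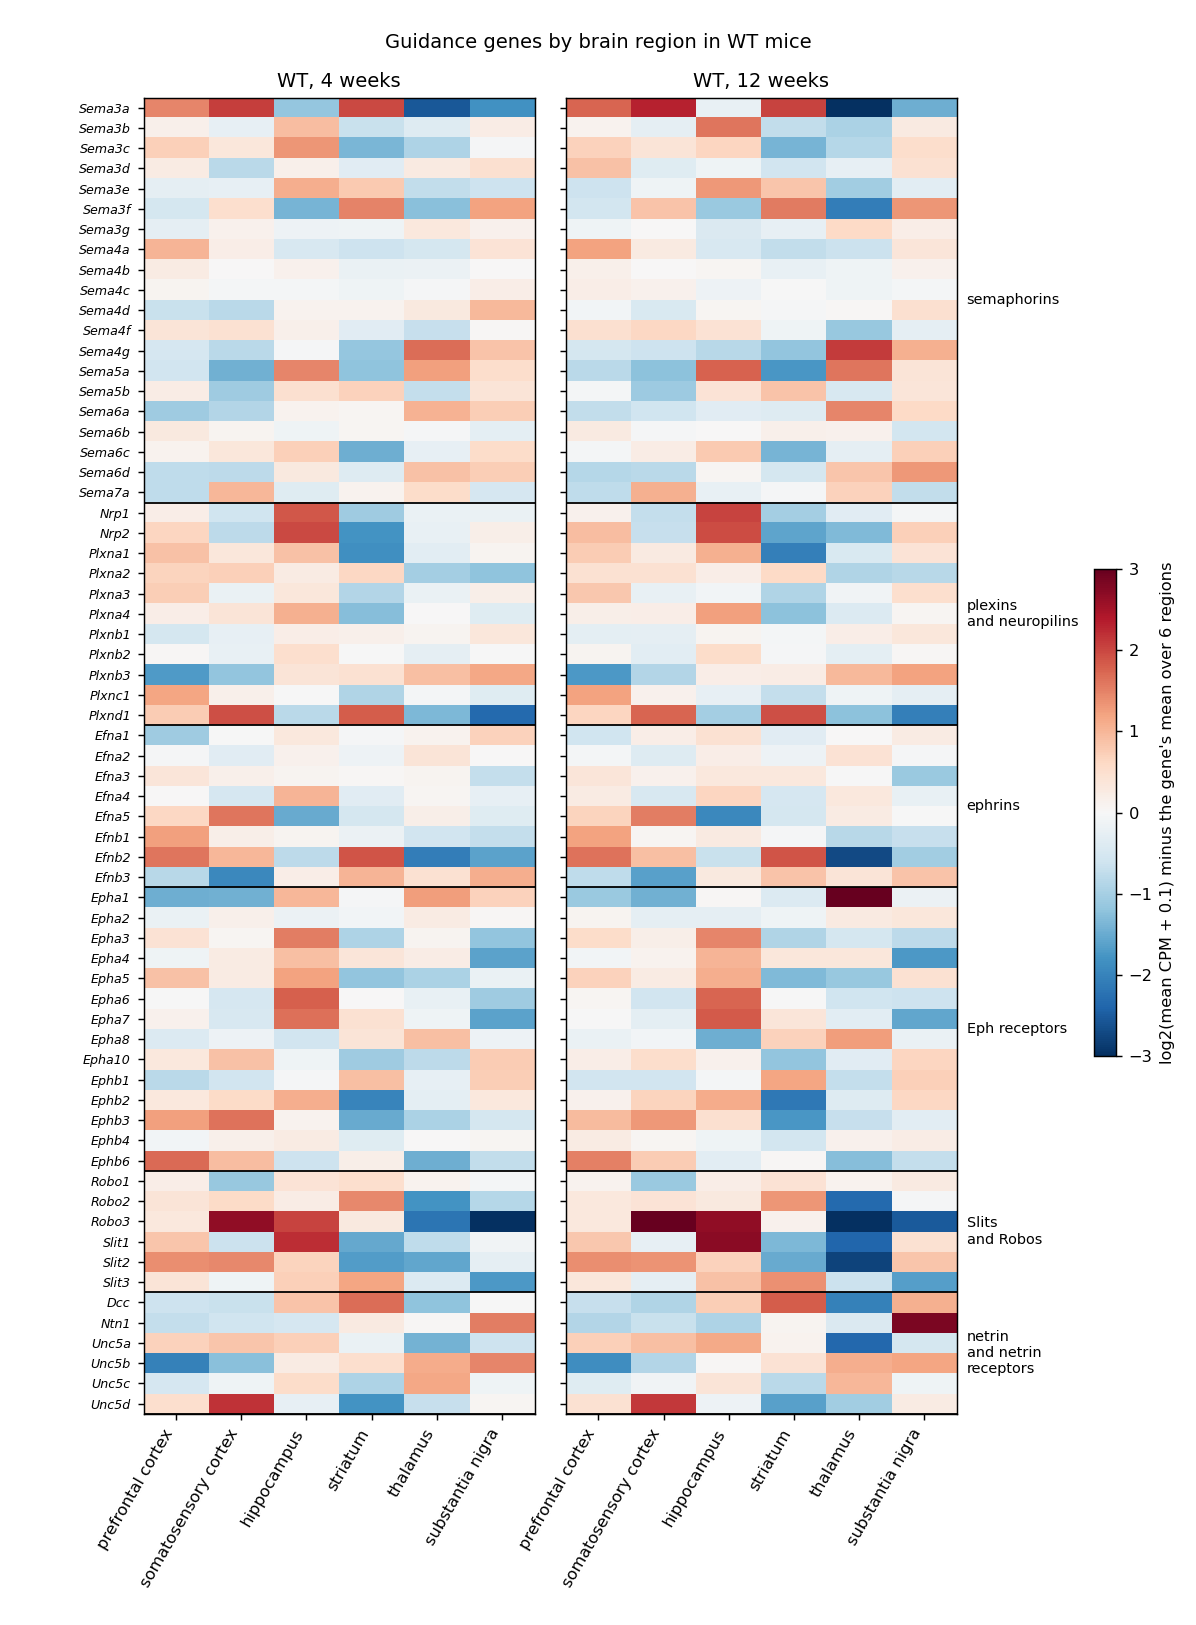
Heat map of the 65 members in WT, by family (rows), in 6 regions at 4 and 12 weeks (columns). Colour is the log2(mean CPM + 0.1) minus the mean of that gene over the 6 regions, limited to ±3. The columns of a region look alike at both ages, hippocampus is the highest region for 19 members, and striatum the lowest for 22. These counts were not made over all genes.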

How the data were processed

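The deposited values are expected counts per gene symbol that the authors made with Salmon on mm10, per the submitters' processing notes. The Salmon version, the annotation and the use of strand were not stated in the sources used here. Libraries were made with a stranded mRNA kit, per the labels' protocols. Of the values above 0, 77.9% were not whole, and 0 columns lacked a sample. Expected counts were rounded and fitted in edgeR 4.0.16 (TMM scaling, filterByExpr, glmQLFit and glmQLFTest; R 4.3.3). The 3 genotypes of a region and age shared a fit, both ages of a region shared one for age, and all regions of an age shared one for regions and for the striatal difference. Region fits carry no term for the animal, since the labels do not say whether regions share mice. Adjusted p-values are Benjamini-Hochberg over all genes tested, with 63 to 65 members tested per fit, and a call is an adjusted p under 0.05. SE is the absolute log2 difference divided by the square root of F. Depth limits precision for members of a few CPM.

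The members and lists were chosen with earlier results of these data known. Members are named with values if called between genotypes, if among the 2 highest or 2 lowest in a region and called at both ages, if among the 4 called with age in the most regions in a direction, or if among the 3 largest striatal differences at an age. Any other member given with values was picked after its values were seen, also where this is not said beside it. Alternatives were DESeq2 1.42.0, limma-voom (limma 3.58.1), scaling by relative log expression, tests of all genes with no count minimum, fewer genotypes, marker scores as covariates, a replicate block and leaving out libraries. Statistics were tested on simulated data. Positions come from GENCODE M21 by symbol (65 of 65 matched) and promoters from RefSeq (55 of 65 matched). The values of 1 effector called at 4 weeks are not reported here.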

Additional observations from a re-analysis of the deposited data

Results flagged for a closer look

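A described member in a group of 5 or 6 libraries was tested for 1 library's value apart from the rest. This was so in 12 of 140 such tests, where chance gives about 1 in 20 for a single test. The tests share libraries and so are not independent. In striatum these were Sema3f in 4-week WT sample 42 at 40.5 CPM (others 31.3 to 33.2), Unc5a in 4-week WT sample 92 at 99.4 (63.1 to 73.2), Sema6a in 4-week WT sample 142 at 106 (72.5 to 78.4) and Unc5d in 12-week WT sample 3 at 12.8 (5.07 to 6.41). In thalamus at 4 weeks, WT sample 913 held 90.6 CPM of Epha5 (others 18.4 to 43.3) and 120 of Epha7 (42.3 to 54.9). In substantia nigra at 4 weeks, WT sample 42 held 41.0 CPM of Epha7 (13.5 to 20.4) and 211 of Sema6a (101 to 133), and the library labelled WT sample 92, which had little Akap11, held 352 CPM of Sema4d (147 to 203) and 258 of Sema6b (98.4 to 152). In the cortices at 4 weeks, WT sample 914 held 163 CPM of Robo2 in prefrontal cortex (125 to 130), and WT sample 23 held 80.7 of Epha5 in somatosensory cortex (87.5 to 90.3). Of these libraries, striatal sample 92, thalamic sample 913 and nigral samples 42 and 92 are among those whose marker scores stand apart.

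The KO difference in striatum differed from that in the other 5 regions for 9 tests. At 4 weeks the log2 differences between them were 1.30 for Unc5d, 1.23 for Epha10, 1.05 for Ephb2, 0.78 for Ephb3, 0.74 for Sema6c and 0.71 for Sema4a. At 12 weeks they were 1.40 for Epha10, -0.60 for Efna3 and -0.49 for Sema7a.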

How the results depend on the processing

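Counts of members called in KO striatum moved with the setting. The share of all genes called, given as a percentage in brackets, moved too. Counts with no percentage, among them all those with 1 library left out, are not set against all genes here. At 4 weeks the main count of 2 (3.35%) became 7 in DESeq2 (5.94%). Leaving out 1 library gave 2 to 8 (8 without KO sample 12, 4 without WT sample 92). Without the libraries with markers apart the count was 3 (2.65%), namely Epha10 higher and Plxna4 and Plxnb1 lower. At 12 weeks the count of 5 (4.42%) became 8 in DESeq2 (6.53%) and 3 with the cortical score as a covariate (3.07%). It was 3 without the low-count filter (2.81%) and 2 with only the compared genotypes (3.71%). The replicate block gave 8 there (6.35%), adding Epha8, Sema4a and Sema6d. The 12-week numbers are reused across genotypes, and same-numbered libraries had median correlations of 0.069 to 0.261 by region (single pairs -0.275 to 0.749) against -0.102 to -0.019 for other numbers. Since not every pair was above 0.1 and the labels name no shared litter or day, the block was not taken as the main design. It moved the striatal calls over all genes from 691 to 992. Leaving out 1 library gave 2 to 9 (9 without WT sample 3, 3 without HET 1, HET 2, KO 1, KO 2, KO 3, WT 2 or WT 4, and 2 without HET 3, KO 5 or WT 1). Epha10 was called at both ages under every setting and every left-out library, at 1.12 to 1.31 and 1.15 to 1.39. In the other 5 regions the count of 0 became 3 in DESeq2 and 0 to 3 with 1 library left out (3 without 4-week prefrontal KO sample 44, 1 without thalamic WT sample 142). The HET count of 0 became 2 in DESeq2 and 0 to 1 with 1 library left out (1 without thalamic WT sample 142). The 6 striatal differences at 4 weeks (3.52% of all genes) became 8 in DESeq2 (3.95%) and 3 in limma-voom with a replicate block (2.07%). Without the libraries with markers apart there was 1 (1.42%), and Ephb2 was -0.105 and Unc5d -0.251. Leaving out 1 library gave 1 to 11 (11 without WT sample 92, 10 without KO 12 or KO 932, 3 without WT 914, 2 without KO 51, 1 without KO 161). The 3 at 12 weeks became 2 to 10 (10 without WT sample 3). Reversed with age were Epha10 in hippocampus of KO libraries (-0.05), and, with the oligodendrocyte covariate, Epha5 (-0.302) and Robo2 (-0.773) in substantia nigra. The age count stayed within 93 to 128, the region count within 522 to 605 and the change of the KO difference with age at 0. The cause of these changes was not tested. No paired analysis across ages was possible because the ages are different mice.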
